A study of Mus musculus with 6 samples.

Results

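The cytosolic ribosomal protein genes make the protein parts of the ribosomes that translate nuclear-encoded mRNAs in the cytoplasm. Their rows were chosen by symbol alone, as Rpl or Rps followed by a number and at most a short suffix (a, x, l or l1), together with Rplp0, Rplp1, Rplp2 and Rpsa. This gave 86 of the 56674 rows of the count table, 53 of the large subunit and 33 of the small subunit. Of these, 82 (50 large, 32 small) passed the filter on low counts and were tested among 17871 genes. The other 4 were Rpl10l, Rpl39l and Rps12l1, with 0 reads in every library, and Rpl3l, with 0, 10 and 18 reads in the PB-MP libraries and 0, 7 and 8 reads in the control libraries. A count of 0 allows up to 3 reads per library, counting error only.

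Liver RNA came from male C57BL/6 mice, a common inbred strain, reared for 71 weeks. The PB-MP group (3 libraries) ate chow that held polypropylene black microplastic, and the control group (3 libraries) ate normal chow. No allele, transgene or further agent is labelled in either group. The comparison asks whether long exposure to this plastic changes gene expression in the liver. The labels number the replicates but do not state that each is a separate animal, so the p-values reflect only how these libraries vary, part of which may be technical.

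A ribosome has a small subunit, which reads the mRNA, and a large subunit, which joins amino acids. Each subunit holds ribosomal RNA and a largely fixed set of proteins, and liver, which makes most plasma proteins, expresses these genes strongly. Vertebrate ribosomal protein mRNAs are known to begin with a C followed by an unbroken run of pyrimidines (the 5′ terminal oligopyrimidine motif, or TOP), through which LARP1 and mTORC1 set how well they are translated.

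Start-site sequences are shown because this motif is the known shared feature of these mRNAs, though it was not used to choose them and other mRNAs carry it too. They were taken from RefSeq on GRCm38.p6, each covering 12 bases before the annotated start and 18 bases from it, with the pyrimidine run in capitals. The feature searched was a C at the start base followed by C or T only, at least 5 pyrimidines in all, on the sense strand.

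Rpl35a: gggcttgccttcCTCTTTCCgccatcttgg
Rps27: tccgctttcgctCCTTTCCggcggtgacga
Rpl15: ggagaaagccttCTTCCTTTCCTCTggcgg
Rps6: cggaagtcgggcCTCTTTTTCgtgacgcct
Rpl28: cctctcgtgtctCTCTTTCCgtctccggcc
Rpl38: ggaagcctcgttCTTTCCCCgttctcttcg
Rplp2: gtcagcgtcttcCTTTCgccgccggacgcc

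The windows are chr16:33056470-33056499 on the plus strand for Rpl35a, chr3:90213631-90213660 on the minus strand for Rps27, chr14:18270969-18270998 on the minus strand for Rpl15 and chr4:86857350-86857379 on the minus strand for Rps6. They are chr7:4792953-4792982 for Rpl28, chr11:114668568-114668597 for Rpl38 and chr7:141447639-141447668 for Rplp2, all on the plus strand. Rpl35a, Rps27, Rpl15 and Rps6 are among the mRNAs highest in PB-MP replicate 3 below, and Rpl28, Rpl38 and Rplp2 among those that were not. The member start sites counted were 75, of 63 genes, and 14 of these sites (18.7%) had the feature, against 823 of all 32851 start sites (2.51%). Member sites on a single chromosome were left out of the 75, though that chromosome was kept in the 32851. Annotated starts can lie some bases from the start used in liver, so an absent run says only that these letters do not begin at that base.

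The ribosomal protein mRNAs as a whole had the highest level in PB-MP replicate 3, and no difference between the diets passed the test. They took 1.28%, 1.27% and 2.22% of all counted reads in PB-MP replicates 1, 2 and 3, against 1.30%, 1.27% and 1.38% in control replicates 1, 2 and 3. PB-MP replicates 1 and 2 therefore lay beside the control libraries in unscaled share, and PB-MP replicate 3 stood above all others. Library totals ran from 70603124 to 90483598 reads in the PB-MP group and from 68357478 to 112566641 reads in the control group.

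Large-subunit mRNAs summed to 6920, 7349 and 12402 CPM (read counts divided by library size, scaled between libraries by the trimmed mean of M values, TMM) in PB-MP replicates 1, 2 and 3, against 8160, 8701 and 8858 CPM in the control replicates. Small-subunit mRNAs summed to 4518, 4828 and 8214 CPM in the PB-MP replicates, against 5402, 5649 and 5892 CPM in the control replicates. On this scale PB-MP replicates 1 and 2 lay below all 3 control libraries for both subunits, and PB-MP replicate 3 lay at 1.45 times the control mean for each of them. In bulk liver, fewer cells of a type and less RNA per cell cannot be told apart.

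**Figure D1:**
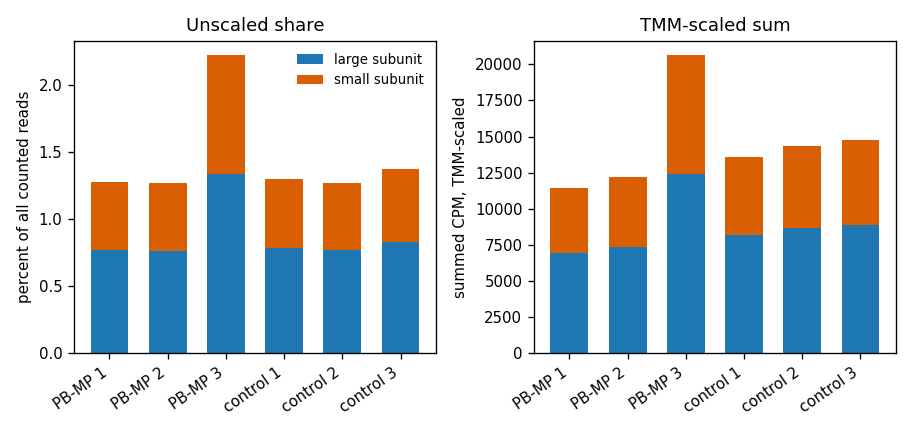
Summed level of the ribosomal protein mRNAs in each library, as percent of all counted reads on the left and as TMM-scaled CPM on the right, with large subunit (blue) and small subunit (orange) stacked. PB-MP replicate 3 is the tallest bar in both panels, at 2.22% against 1.30%, 1.27% and 1.38% in the control libraries.

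The balance between the subunits was nearly constant. The ratio of large-subunit to small-subunit reads, which needs no scaling between libraries, was 1.53, 1.52 and 1.51 in the PB-MP replicates and 1.51, 1.54 and 1.503 in the control replicates. It averaged 1.52 ± 0.011 in the PB-MP group and 1.52 ± 0.0197 in the control group (SD, n = 3 each), and the groups overlapped. PB-MP replicate 3 did not stand apart in this ratio.

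**Figure D2:**
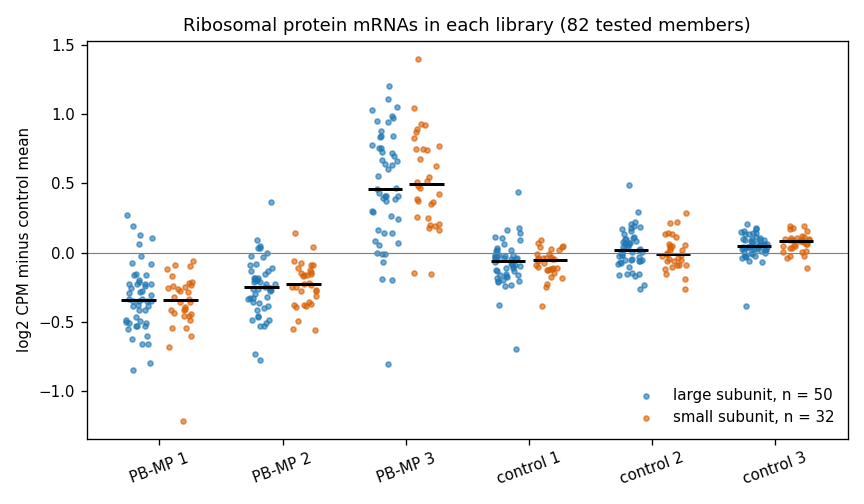
Each point is 1 of the 82 tested ribosomal protein genes in 1 library, as log2 CPM minus the control mean of that gene, with large subunit in blue, small subunit in orange and black bars at the medians. The medians lie near -0.34 in PB-MP replicate 1, near -0.24 in PB-MP replicate 2 and near 0.47 in PB-MP replicate 3, while the control libraries lie near 0.

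Gene by gene, the 2 subunits showed the same library pattern. The median log2 ratio to the control mean of large-subunit genes was -0.34, -0.25 and 0.46 in PB-MP replicates 1, 2 and 3, and that of small-subunit genes was -0.34, -0.23 and 0.49. The median over all genes tested was 0.04, 0.04 and 0.02 in the same 3 libraries. PB-MP replicate 3 lay above all 3 control libraries for 68 of 82 members (39 large, 29 small), where 31.6% of all genes tested did, and below all 3 for 4 members, where 30.3% of all genes did. These 68 members were also at their highest of all 6 libraries there, as were 22.1% of all genes.

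The other PB-MP libraries went the other way on the TMM scale. PB-MP replicate 1 lay below all 3 control libraries for 70 members, against 27.6% of all genes, and above for 2, against 29.1%. PB-MP replicate 2 lay below for 66 members, against 26.2% of all genes, and above for 1, against 27.3%. For 52 members (28 large, 24 small), PB-MP replicates 1 and 2 were below and PB-MP replicate 3 was above every control library. The share of all genes with this joint pattern was not counted, so how unusual it is cannot be said.

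How far PB-MP replicates 1 and 2 lay below control depended on the scaling, whereas the height of PB-MP replicate 3 was seen on both scales. With plain shares of all reads, PB-MP replicate 3 lay above every control library for 77 members, against 44.1% of all genes. On that scale PB-MP replicate 1 lay below every control library for 32 members, against 12.1% of all genes, and PB-MP replicate 2 for 30, against 15.0%. The median log2 ratio of the members was then -0.07, -0.07 and 0.69 in the 3 PB-MP libraries, where that of all genes was 0.30, 0.21 and 0.24. Mitochondrially encoded transcripts took 11.3%, 10.7% and 9.24% of reads in the PB-MP replicates and 14.8%, 16.4% and 16.02% in the control replicates. Their part in these ratios was not tested.

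The spread between PB-MP libraries was wide for this family. Over the 80 members that averaged 10 CPM or more, the median SD of log2 CPM was 0.46 over the 3 PB-MP libraries and 0.11 over the 3 control libraries. Over all 6681 genes at that level these medians were 0.25 and 0.22. The SD over PB-MP libraries was the larger of the 2 for 77 of the 80 members.

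**Figure D3:**
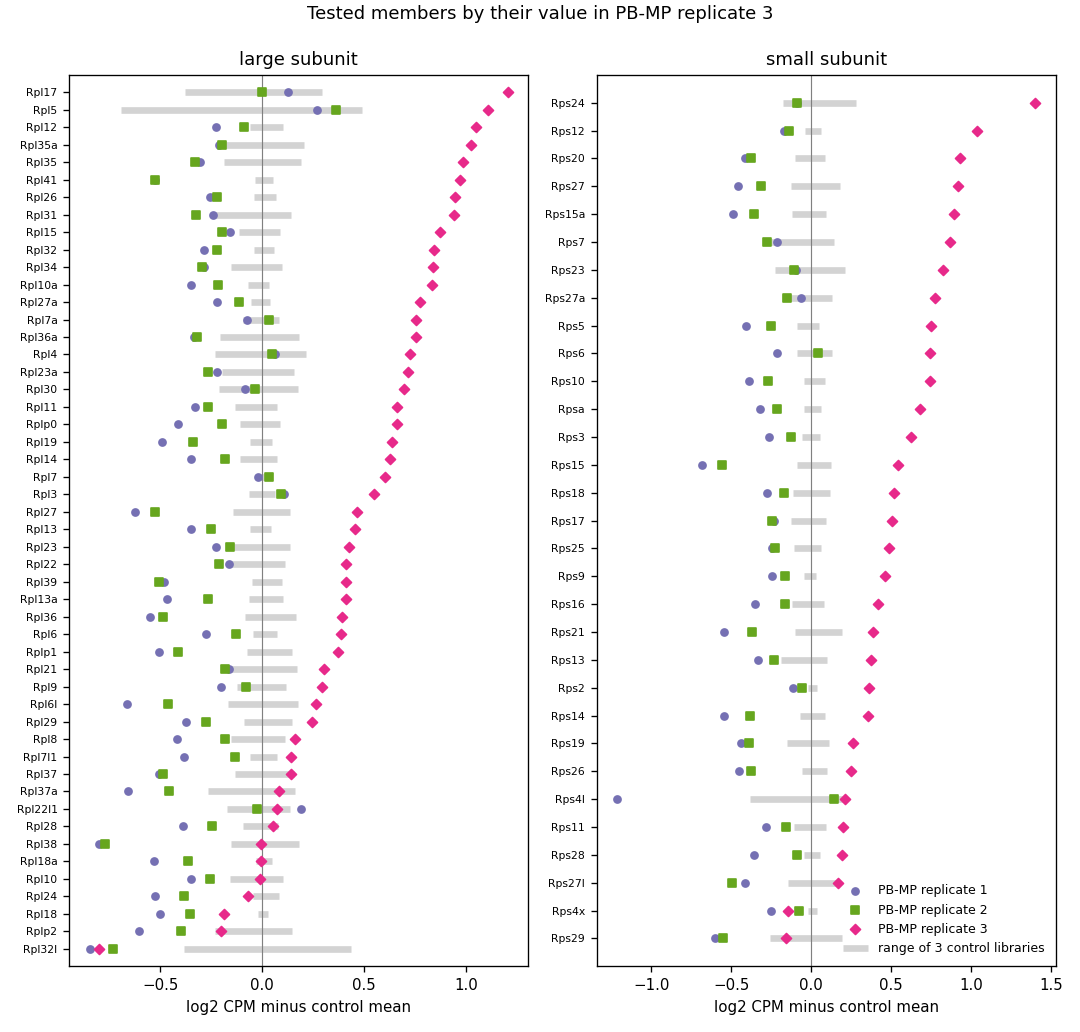
Log2 CPM minus the control mean for 81 of the 82 tested members, large subunit on the left and small subunit on the right, ordered by PB-MP replicate 3 (diamonds), with PB-MP replicates 1 (circles) and 2 (squares) and grey bars for the range of the 3 control libraries. Rps24, Rpl17 and Rpl5 lie at the top in PB-MP replicate 3, and Rpl32l, Rplp2, Rpl18 and Rps29 lie at the bottom.

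By edgeR's quasi-likelihood test, 0 of 82 members passed an adjusted p of 0.05 (Benjamini-Hochberg over all genes), as did 0 of all 17871 genes (0.00%). At an unadjusted p under 0.05, 0 members were higher, against 7.35% of all genes, and 1 was lower, against 4.74%. DESeq2 called 0 members, against 513 of all 20865 genes it tested (2.46%), and limma-voom called 0 members and 0 of all genes. At an unadjusted p under 0.05, 0 members were found in either tool. Over all genes, 5.58% were higher and 2.83% lower under DESeq2, and 8.84% higher and 4.84% lower under limma-voom. The median log2 fold change, PB-MP over control, was 0.04 for the large and 0.05 for the small subunit, beside 0.01 for all genes. All 3 PB-MP libraries lay above all 3 control libraries for 1 member, against 11.4% of all genes, and below for 4 members, against 8.49%. For 66 of 82 members, and for 45.7% of all genes, the 95% interval of this estimate stayed inside -1 to 1.

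Leaving out PB-MP replicate 3 turned the direction of the medians. The median log2 fold change was then -0.30 for the large and -0.27 for the small subunit, beside 0.01 for all genes, and 76 of 82 estimates were below 0 (92.7%), against 49.6% of all genes. At an unadjusted p under 0.05, 27 members (15 large, 12 small; 32.9%) were lower, against 6.01% of all genes, and 0 were higher. In that fit 0 members passed the adjusted threshold, and the smallest adjusted p in edgeR was 0.323. With library size as the only scaling and PB-MP replicate 3 left out, a setting chosen after seeing the data, the medians were -0.08 and -0.05, beside 0.23 for all genes, and 2 members were lower at an unadjusted p under 0.05, against 2.02% of all genes.

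**Figure D4:**
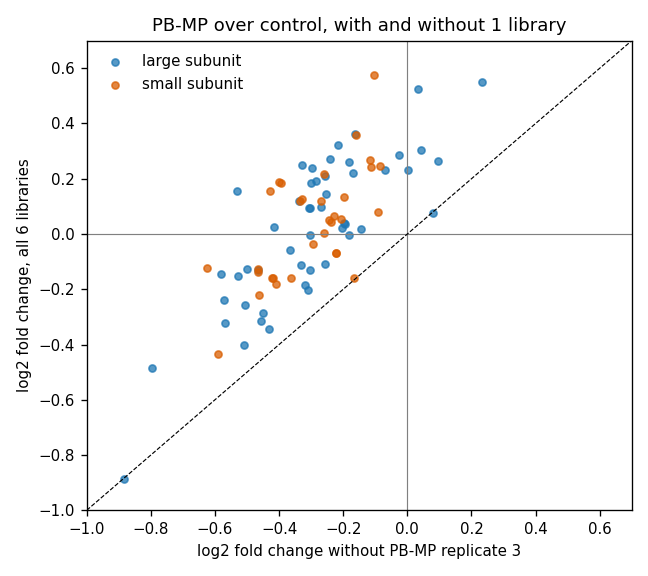
Log2 fold change of each tested member, PB-MP over control, with all 6 libraries (vertical axis) against the same without PB-MP replicate 3 (horizontal axis), large subunit in blue and small subunit in orange, with a dashed line of equality. With PB-MP replicate 3 left out, 76 of 82 members lie below 0.

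Among large-subunit proteins of the catalytic core and the exit tunnel, Rpl3, which reaches towards the peptidyl transferase centre, was the member without overlap in the higher direction. Rpl3 had 177, 175 and 240.3 CPM in the PB-MP replicates, against 172, 164 and 157 CPM in the control replicates. PB-MP replicates 1 and 2 lay barely above the control libraries, and PB-MP replicate 3 well above, and the log2 fold change of 0.26 ± 0.17 (SE) did not pass (edgeR adjusted p = 0.583) and was 0.0953 without PB-MP replicate 3. Rpl4, which lines the exit tunnel, had 355, 352 and 562 CPM in the PB-MP replicates, against 289.7, 396 and 344 CPM in the control replicates. Rpl17, also at the tunnel, had 174, 159 and 368 CPM in the PB-MP replicates, against 122, 195 and 169.7 CPM in the control replicates. For Rpl4 and Rpl17 PB-MP replicate 3 was the highest library and the other PB-MP libraries lay within the control range, and without PB-MP replicate 3 their log2 fold changes were 0.0411 and 0.0337, beside 0.30 and 0.52 with all libraries.

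Rpl5 and Rpl11 enter the large subunit together with 5S ribosomal RNA and, when free, bind the p53 ubiquitin ligase Mdm2. Rpl5 had 199.7, 213 and 357 CPM in the PB-MP replicates, against 102, 233 and 191 CPM in the control replicates. Its log2 fold change of 0.55 ± 0.35 was the highest of the large subunit (edgeR adjusted p = 0.57) and was 0.23 without PB-MP replicate 3. The groups overlapped, with control replicate 1 as the lowest library. Rpl11 had 175, 183 and 348 CPM in the PB-MP replicates, against 200.4, 229.6 and 231 CPM in the control replicates, so these partners shared the high value in PB-MP replicate 3 but not the low value in control replicate 1. Mdm2 had 27.9, 28.01 and 25.7 CPM in the PB-MP replicates, against 21.8, 21.2 and 17.4 CPM in the control replicates, without overlap, and did not pass (edgeR adjusted p = 0.367).

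The P-stalk proteins Rplp0, Rplp1 and Rplp2 recruit the elongation factors to the ribosome. Their place in PB-MP replicate 3 differed, and the difference between them was not tested. Rplp0, the base of the stalk, had 261, 304 and 551 CPM in the PB-MP replicates, against 370.4, 323 and 353 CPM in the control replicates. Rplp1 had 234, 250.3 and 431 CPM in the PB-MP replicates, against 316, 316 and 369 CPM in the control replicates. Rplp2 had 83.4, 96.2 and 110.3 CPM in the PB-MP replicates, against 140.0, 108 and 135 CPM in the control replicates. Rplp0 and Rplp1 were highest in PB-MP replicate 3, whereas Rplp2 lay inside the control range there, and its log2 fold change was -0.40 ± 0.18 (edgeR adjusted p = 0.427). Without PB-MP replicate 3 the log2 fold changes of Rplp0, Rplp1 and Rplp2 were all negative, at -0.31, -0.47 and -0.51.

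Other large-subunit genes did not share the high value of PB-MP replicate 3. Rpl18 had 124, 138 and 154 CPM in the PB-MP replicates, against 173, 175 and 179.5 CPM in the control replicates, without overlap. Rpl18 had the smallest p of all members, with a log2 fold change of -0.34 ± 0.15 (edgeR unadjusted p = 0.0498, adjusted p = 0.413). Rpl24 was below without overlap too, with 132, 146 and 181 CPM in the PB-MP replicates, against 186, 185 and 202 CPM in the control replicates.

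Rpl38, known in mouse embryos for its part in translating Hox mRNAs, had 53.6, 54.6 and 93.1 CPM in the PB-MP replicates, against 91.8, 84.0 and 106 CPM in the control replicates. PB-MP replicate 3 lay inside the control range and the other PB-MP libraries well below it. Rpl38 had a log2 fold change of -0.48 ± 0.25 with all libraries (edgeR adjusted p = 0.478) and of -0.80 ± 0.15 without PB-MP replicate 3 (edgeR adjusted p = 0.323). Rpl10, one of the last proteins added to the large subunit, had 247, 264 and 312 CPM in the PB-MP replicates, against 338, 282 and 328 CPM in the control replicates, with overlap.

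In the small subunit, Rps24 had the widest spread of all members at 10 CPM or more. It had 135, 135 and 379.6 CPM in the PB-MP replicates, against 128, 175 and 134 CPM in the control replicates. PB-MP replicates 1 and 2 lay inside the control range, and PB-MP replicate 3 lay far above the highest control library. Its log2 fold change of 0.58 ± 0.42 (edgeR adjusted p = 0.619) was -0.105 without PB-MP replicate 3.

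Rps6, the substrate of the S6 kinases downstream of mTORC1, had 172, 205 and 334 CPM in the PB-MP replicates, against 187, 218 and 194 CPM in the control replicates. Rps23, at the decoding centre, had 119, 118 and 226 CPM in the PB-MP replicates, against 109, 148 and 129 CPM in the control replicates. Rps12 had 87.9, 89.7 and 204 CPM in the PB-MP replicates, against 96.3, 103 and 97.5 CPM in the control replicates. In each of these 3 genes PB-MP replicate 3 was the highest library, and edgeR adjusted p-values ran from 0.703 (Rps12) to 0.749 (Rps23).

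Rpsa, first described as a laminin receptor, had 270.2, 290.1 and 539 CPM in the PB-MP replicates, against 334, 326 and 351 CPM in the control replicates. Rps27a, made as a fusion with ubiquitin, had 130.0, 122 and 232 CPM in the PB-MP replicates, against 119.8, 149 and 140.4 CPM in the control replicates. Both were highest in PB-MP replicate 3.

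Rps4x, Rps29 and the pseudogene row Rps4l were the small-subunit members for which PB-MP replicate 3 was not above every control library. Rps4x, encoded on the X chromosome, had 188, 213 and 203 CPM in the PB-MP replicates, against 230.3, 222 and 221 CPM in the control replicates. It had the smallest spread over the 6 libraries of all members at 10 CPM or more, the groups did not overlap, and the log2 fold change of -0.16 ± 0.14 did not pass (edgeR adjusted p = 0.682). With library size as the only scaling this value was 0.06. Rps29 had 79.2, 81.97 and 108 CPM in the PB-MP replicates, against 126, 100.2 and 137 CPM in the control replicates, with overlap (log2 fold change -0.43 ± 0.19, edgeR adjusted p = 0.429). Rps4l (-0.18 ± 0.39) and Rps27l (-0.22 ± 0.21) also had negative log2 fold changes that did not pass.

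Rpl13a, Rps18 and Rplp0 are often used as reference genes for quantitative PCR. Rpl13a had 264, 304 and 485 CPM in the PB-MP replicates, against 349, 392 and 356 CPM in the control replicates. Rps18 had 210.2, 227 and 365 CPM in the PB-MP replicates, against 235, 276 and 255 CPM in the control replicates. With Rplp0 above, all 3 varied more between PB-MP libraries than between control libraries.

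Levels were also set against annotated transcript length, as mean CPM over the 6 libraries per kilobase. Where no principal transcript was found, the length was the median over all transcripts of a gene, which can include short ones. The highest values were those of Rpl13a in the large subunit (713 CPM per kb) and Rps2 in the small (549 CPM per kb). The lowest were those of Rpl32l (0.851 CPM per kb) and Rps4l (13.0 CPM per kb), and RefSeq lists Rps4l as a transcribed pseudogene. Ribosomal protein genes have many processed copies, so reads can be split among near-identical rows. With that and the lengths used, these levels and their ranks are uncertain. Rows with names of ribosomal protein pseudogenes held 2.84, 2.83 and 2.46 reads per 100 member reads in the PB-MP replicates and 3.57, 2.88 and 3.17 in the control replicates.

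The paralogs differed from their partners, with levels per length on the same uncertain scale. Rpl22l1 stood at 22.7 CPM per kb and Rpl22 at 180.0 CPM per kb, and Rpl7l1 at 47.6 and Rpl7 at 232 CPM per kb. Rps27l, a p53 target, stood at 290.5 CPM per kb and Rps27 at 419 CPM per kb. Rpl22l1 had 13.9, 11.9 and 12.8 CPM in the PB-MP replicates, against 10.8, 12.5 and 13.3 CPM in the control replicates, without a high value in PB-MP replicate 3, whereas Rpl22 had 91.6, 88.4 and 136 CPM in the PB-MP replicates, against 91.3, 111 and 106 CPM in the control replicates. Rps27 had 130.2, 144 and 338 CPM in the PB-MP replicates, against 164, 173 and 203 CPM in the control replicates, and Rps27l had 111, 105 and 166 CPM in the PB-MP replicates, against 134, 147 and 165 CPM in the control replicates. Rpl39 had 49.2, 48.4 and 91.3 CPM in the PB-MP replicates, against 66.6, 66.3 and 73.6 CPM in the control replicates.

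Ribosomal proteins that the symbol rule leaves out had a similar library pattern. Of 6 such genes, PB-MP replicate 3 was the highest library for 5, against 22.1% of all genes. The list's median log2 ratio to control was -0.40, -0.38 and 0.53 in PB-MP replicates 1, 2 and 3. Fau, whose product releases a small-subunit protein, had 136, 136 and 283 CPM in the PB-MP replicates, against 182, 172 and 202 CPM in the control replicates. Rack1, a scaffold on the small subunit, had 177, 194 and 347 CPM in the PB-MP replicates, against 222, 204 and 229 CPM in the control replicates. Rps3a1 and Rpl36al were also highest in PB-MP replicate 3, at 309.6 and 135 CPM. Rps27rt, a low-abundance Rps27 relative, had 1.34, 1.69 and 1.49 CPM in the PB-MP replicates, against 3.44, 1.85 and 3.08 CPM in the control replicates.

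**Figure D5:**
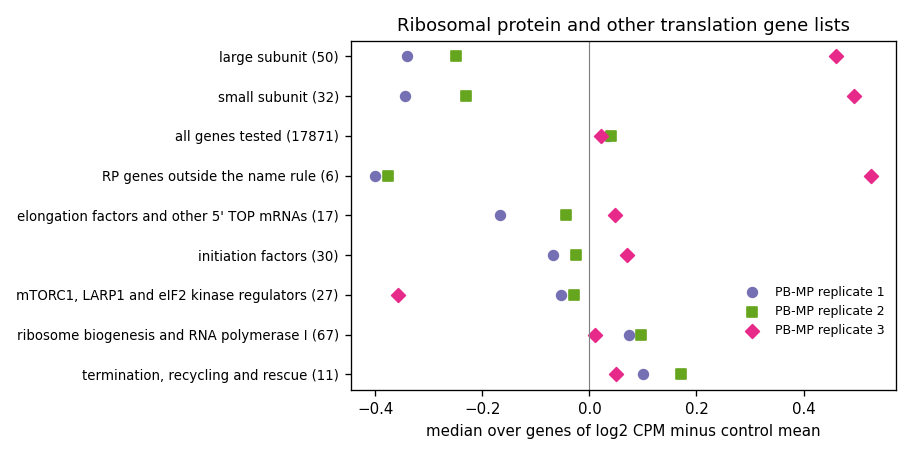
Median log2 CPM minus the control mean over the genes of each list, with PB-MP replicate 1 as circles, PB-MP replicate 2 as squares and PB-MP replicate 3 as diamonds, and the number of tested genes in brackets. In PB-MP replicate 3 the highest medians among the lists drawn are 0.53 for ribosomal proteins outside the name rule, 0.49 for the small subunit and 0.46 for the large subunit.

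Among other translation genes, 0 genes of any list passed the adjusted threshold in edgeR, and differences between lists were not tested. Of 17 elongation factors and other TOP mRNAs, 8 were highest in PB-MP replicate 3, against 22.1% of all genes, and the list's median log2 ratio was -0.17, -0.04 and 0.05 in PB-MP replicates 1, 2 and 3. Tpt1, a small TOP mRNA product, had 615, 592 and 982 CPM in the PB-MP replicates, against 471, 696 and 572 CPM in the control replicates. Eef1a1, the factor that brings aminoacyl-tRNA to the ribosome, had 3415, 3606 and 4874 CPM in the PB-MP replicates, against 3155, 3604 and 3499 CPM in the control replicates. Eef2, the translocation factor, did not share it, with 1261, 1449.6 and 1218 CPM in the PB-MP replicates, against 1465, 1312 and 1477 CPM in the control replicates. Eef1a1 and Eef2 were chosen after their values were seen. Npm1, a nucleolar TOP mRNA product, had a log2 fold change of 0.35 ± 0.21, and Eef1d, an exchange factor subunit, one of -0.56 ± 0.23 (edgeR adjusted p = 0.55 and 0.396).

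The list medians of 30 initiation factors were -0.07, -0.03 and 0.07 in PB-MP replicates 1, 2 and 3. Eif4g1, the scaffold of the cap-binding complex, had 233, 265 and 112 CPM in the PB-MP replicates, against 107, 73.1 and 134 CPM in the control replicates, so PB-MP replicate 3 lay inside the control range. Eif3c was below without overlap, with a log2 fold change of -0.41 ± 0.15, and Eif2s2 had -0.38 ± 0.16 (edgeR adjusted p = 0.367 and 0.424).

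For 27 mTORC1, LARP1 and eIF2 kinase regulators the medians were -0.05, -0.03 and -0.36 in PB-MP replicates 1, 2 and 3. Maf1, a repressor of RNA polymerase III, had 10.4, 8.13 and 10.7 CPM in the PB-MP replicates, against 24.8, 11.2 and 20.7 CPM in the control replicates (log2 fold change -0.96 ± 0.31, edgeR adjusted p = 0.327). Eif2ak1, the heme-regulated eIF2 kinase, and Myc, a transcription factor of ribosome synthesis, had log2 fold changes of -0.40 ± 0.17 and -0.52 ± 0.31. These were chosen as the smallest p-values of their list, and none passed.

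For 67 ribosome biogenesis and RNA polymerase I genes, which build the ribosomal RNA and its processing machinery, the medians were 0.07, 0.10 and 0.01 in PB-MP replicates 1, 2 and 3. PB-MP replicate 3 was the highest library for 17 of them, a share near the 22.1% of all genes. Dimt1, a small-subunit RNA methylase, had a log2 fold change of 0.63 ± 0.23, Mdn1, a remodelling ATPase of the large subunit precursor, 0.52 ± 0.24, and Bysl, a small-subunit assembly factor, -0.44 ± 0.17 (edgeR adjusted p = 0.367, 0.437 and 0.371). For 11 genes of termination, recycling and rescue, a list that also holds Mdm2, the medians were 0.10, 0.17 and 0.05. Zfp598, which senses collided ribosomes, had 56.3, 53.7 and 58.3 CPM in the PB-MP replicates, against 41.8, 41.7 and 33.4 CPM in the control replicates (edgeR adjusted p = 0.286), and Abce1, the recycling factor, had a log2 fold change of 0.27 ± 0.23.

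Genes with and without the start-site feature overlapped in PB-MP replicate 3, and the difference between them was not tested. The log2 ratio of that library to the control mean had a median of 0.69 over the 14 tested members with the pyrimidine run at the annotated start, from -0.80 to 1.03. The lowest of these was Rpl32l, at a mean of only 0.34 CPM, and the next lowest was Rplp2, at -0.20. Over the 46 with a counted start but no such run the ratio had a median of 0.46, from -0.19 to 1.40. Rpl35a (200.2 CPM in PB-MP replicate 3, against 85.2, 113.1 and 98.3 CPM in the control replicates) and Rpl28 (257 CPM, against 232, 251 and 261 CPM) both hold a run of 8 pyrimidines from the start.

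Marker genes of other cell types and residual ribosomal RNA varied between libraries too. Summed markers of Kupffer cells, the resident liver macrophages, stood at 151, 133 and 276 CPM in the PB-MP replicates and at 132, 109 and 144 CPM in the control replicates. Of these markers, 7 of 7 were highest in PB-MP replicate 3, against 22.1% of all genes. Granulocyte markers summed to 2.80, 2.74 and 5.07 CPM in the PB-MP replicates and to 1.56, 1.17 and 1.12 CPM in the control replicates, with 1 of 4 at 0 in every library. Hepatocyte markers summed to 71270, 77330 and 80330 CPM in the PB-MP replicates and to 79370, 65970 and 75250 CPM in the control replicates. Most of this sum was Alb, at 49897, 54433 and 53218 CPM (PB-MP) and 56244, 47165 and 51387 CPM (control). Only 8 of the 9 hepatocyte markers had a row, and 3 of these 8 were highest in PB-MP replicate 3. Groups did not overlap for B and plasma cell markers, at 9.79 to 13.3 CPM (PB-MP) and 18.04 to 54.5 CPM (control). The adipocyte marker sum did not overlap either, at 0.615 to 1.40 and 2.19 to 12 CPM, but nearly all of it was Cfd. Of the 4 adipocyte markers, 1 was at 0 in every library and only Cfd passed the filter on low counts. Cfd had 0.723, 0.615 and 1.303 CPM in the PB-MP replicates, against 8.713, 2.195 and 11.982 CPM in the control replicates. Groups overlapped for markers of stellate cells (152 to 261 CPM in the PB-MP group, 257 to 278 CPM in the control group), sinusoidal endothelium (53.2 to 90.9 and 68.2 to 82.9 CPM), T and NK cells (2.81 to 3.74 and 3.69 to 6.86 CPM), cholangiocytes (3.24 to 5.84 and 4.46 to 8.15 CPM) and erythroid cells (430 to 633 and 264 to 507 CPM). Residual 18S ribosomal RNA took 3.61%, 9.42% and 0.707% of reads in the PB-MP replicates and 2.92%, 11.2% and 1.15% in the control replicates, lowest in PB-MP replicate 3 and in the same order over the replicate numbers in both groups. The part of these measures in the ribosomal protein values was not tested.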

How the data were processed

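The deposited values are unnormalized whole-number read counts by symbol for poly(A)-selected directional liver libraries. The submitters' processing notes name bcl2fastq and GRCm39. Not given in the sources used here: aligner, counting program, strand setting and handling of multiply mapped reads. Rows sharing a name (939) held 0.0308% of reads. Genes were filtered with filterByExpr (minimum count 10, minimum total 15), scaled by TMM and tested by edgeR 4.0.16 (quasi-likelihood test, R 4.3.3), PB-MP over control, with Benjamini-Hochberg adjustment over all 17871 genes at 0.05. Log2 values used a prior count of 2. Alternatives included limma 3.58.1 and DESeq2 1.42.0. Transcript lengths came from GENCODE M21, as the median over all transcripts of a gene where no principal one was found. The members, lists and named genes were chosen with earlier results of these data known. Named genes are, per subunit, the 4 smallest p-values in each direction and the extremes of level, the extremes of spread, fixed anchors and paralogs, all ribosomal proteins outside the rule and the 3 smallest p-values per list. Rpl7, Rpl15, Rpl24, Rpl28, Rpl35a, Eef1a1 and Eef2 were added after their values were seen. A few genes that the rule names are not reported here.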

Additional observations from a re-analysis of the deposited data

How the results depend on the processing

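No member passed the adjusted threshold under any of the alternatives run, and the cause of the following differences was not tested. The count of members lower at an unadjusted p under 0.05 (1 with the settings used) was 0 with library size only, median-of-ratios or upper-quartile scaling, without mitochondrially encoded and ribosomal RNA rows, with no filter, with at least 1 CPM in 3 libraries, and under DESeq2, limma-voom or robust estimation. In those settings the share of all genes lower ran from 1.74% (library size only) to 4.86% (median of ratios). It was 12 of 82 under limma-voom with quality weights (9.56% of all genes lower), 34 with control replicate 2 and PB-MP replicate 3 both left out (11.4%), and 2 with library size only and PB-MP replicate 3 left out (2.02%), the last chosen after seeing the data. Nothing in the labels sets control replicate 2 and PB-MP replicate 3 apart from the other libraries. Members higher numbered 1 with library size only, where 14.1% of all genes were higher. Leaving out 1 library in turn gave 0 to 27 members lower. There were 27 without PB-MP replicate 3 (6.01% of all genes), 2 without control replicate 2 (7.09%) and 1, Rpl32l, without control replicate 3 (2.98%). There were 0 without PB-MP replicate 1 (3.33% of all genes), PB-MP replicate 2 (4.14%) or control replicate 1 (2.84%). Over all genes, calls numbered 513 under DESeq2, 2 with those libraries both left out, and 0 to 1 with 1 library left out (1 without control replicate 1). Replicate numbers were not taken to pair the libraries, since the labels state no pairing and the correlations of same-numbered deviations were -0.09, 0.09 and 0.08, although 18S shares had the same order over the numbers in both groups. A replicate block gave 2 members lower, where 3.73% of all genes were. With quality weights the median log2 fold change was -0.20 for the large and -0.22 for the small subunit. Library size only turned the sign of 23 of 82 members, among them, by more than the SE, Rps4x (0.0584), Rpl10 (0.0107) and Rpl7l1 (0.11), on a scale where the median of all genes was 0.23. Quality weights turned 37 members, among the named genes by more than the SE Rps12 (-0.0278), Rplp0 (-0.26), Rpsa (-0.20), Rpl11 (-0.21), Rps27 (-0.30) and Rack1 (-0.18). Leaving out control replicate 2 and PB-MP replicate 3 together turned 39 members, among the named genes by more than the SE Rps12 (-0.14), Rps6 (-0.0275), Rps2 (-0.11), Rplp0 (-0.37), Rpsa (-0.31), Rpl11 (-0.29), Rps18 (-0.18), Rps27a (-0.0588), Rps27 (-0.43) and Rack1 (-0.30). Leaving out PB-MP replicate 3 turned 42 members, and the named genes that turned by more than the SE had these ranges over the 6 fits without 1 library, in log2: Rps24 (-0.105 to 0.83), Rps12 (-0.16 to 0.57), Rps6 (-0.0853 to 0.433), Rps23 (-0.12 to 0.43), Rplp0 (-0.31 to 0.29), Rpsa (-0.27 to 0.30), Rpl11 (-0.30 to 0.27), Rps18 (-0.23 to 0.21), Rps27a (-0.11 to 0.41), Rpl22 (-0.20 to 0.15), Rps27 (-0.39 to 0.42), Rps3a1 (-0.0877 to 0.21) and Rack1 (-0.24 to 0.31).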
